A study of Homo sapiens with 6 samples.

Results

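The genes described here are 38 genes of glycolysis, of glucose and lactate transport and of the response to low oxygen, looked up by symbol in a table of 59050 entries. They fall into 17 glycolytic enzymes, 3 enzymes of the PFKFB family, 5 transporters, 5 genes of the hypoxia-inducible factors (HIF) and their regulators, and 8 other HIF targets. The first 3 groups (25 genes) were contrasted with the other two (13 genes). The table comes from bulk RNA-seq of human foreskin fibroblasts (HFF) at about passage 18 that carried ER:RAS, a fusion of H-RAS (G12V) with the hormone-binding part of the oestrogen receptor, brought in by a virus packaged in HEK293T cells and selected with neomycin at 200 µg/ml. Adding 4-hydroxytamoxifen (4-OHT) switches the fusion on at the protein level. One group of 3 libraries comes from cells given 100 nM 4-OHT and harvested a week later in oncogene-induced senescence, and the other group of 3 from cells given DMSO. The labels do not say whether the line was a pool or a single clone, when the DMSO cells were harvested, whether replicates were separate cultures, or how much glucose and oxygen the cells received. The p-values therefore measure only the spread between these libraries, which may be technical.

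Glycolysis splits glucose into pyruvate in the cytosol, and lactate dehydrogenase turns pyruvate into lactate for export. The pace is set largely at hexokinase, at phosphofructokinase and at the entry of glucose. HIF is a pair of an alpha subunit (HIF1A or EPAS1) and a stable partner. In the presence of oxygen the prolyl hydroxylases EGLN1 and EGLN3 mark the alpha subunit for VHL, which directs it to destruction. In low oxygen the alpha subunit persists and raises the transcription of most glycolytic genes, of SLC2A1 and of genes such as CA9 and NDRG1. These steps act on the HIF protein, which transcript levels do not show.

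Levels are TPM, a measure of abundance that is scaled to transcript length, so that genes can be set side by side. Log2 fold changes give the 4-OHT mean minus the DMSO mean of log2(TPM + 1), where a low gene's change comes out too small, and a gene is said to have risen or fallen where limma's adjusted p over all genes tested was below 0.05. Each group has n = 3 and errors beside TPM are SD.

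The largest changes were in regulators of the pathway rather than in its enzymes. The PFKFB enzymes PFKFB3 and PFKFB4 rose by 3.55-fold and 4.20-fold in TPM. The HIF subunit EPAS1 was 8.16-fold lower while its relative HIF1A rose by 1.37-fold. The glucose transporter SLC2A1 fell to 52.7 ± 3.97 from 105 ± 7.91 TPM and the lactate transporter SLC16A1 rose to 81.9 ± 2.80 from 45.0 ± 2.16 TPM. None of the 17 enzymes of the main chain changed by as much as 1 log2 unit.

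Of the 38 genes, 36 passed the filter of a mean of at least 1 TPM. The untested ones, EGLN3 and CA9, lay below 1 TPM in every library. Of the 36, 16 rose, 8 fell and 12 did not pass the test. Over all 15272 genes tested, 19.8% rose and 29.9% fell, 49.6% in all, so that a list is read here against that share. The median log2 fold change was 0.12 for the 36 genes and -0.09 for all genes tested. The groups' libraries did not overlap in 26 of the 36 genes (17 above, 9 below), and in 59.0% of all genes tested. As deposited, TPM carry no scaling between libraries. Median-of-ratios scaling shifted the fold changes of all genes tested by a median of 0.113 log2 units and those of all 36 genes upward. Quantile normalization shifted them by a median of 0.131, but of the 36 it moved 21 up and 15 down. After median-of-ratios scaling 21 of the 36 genes rose and 7 fell, against 26.5% and 23.5% of all genes (50.0% in all). After quantile normalization 16 rose and 6 fell, against 23.9% and 23.6% (47.5% in all).

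The promoters of PFKFB3 and PFKFB4, which rose, and of EPAS1 and SLC2A1, which fell, are shown first. As deposited these were the 4 largest changes, but under either scaling EGLN1 (1.05 under median-of-ratios, 1.02 under quantile) moved further than SLC2A1 (-0.87 and -1.01). Each line is the 250 bases before a RefSeq start site (GRCh38.p14), read 5′ to 3′ on the gene's strand. Capitals mark the cores of the site that HIF is known to bind, ACGTG and GCGTG, on either strand. PFKFB3 has a pair of start sites in that table, and the expression table does not say which was used.
EPAS1 (chr2:46297157-46297406, plus strand): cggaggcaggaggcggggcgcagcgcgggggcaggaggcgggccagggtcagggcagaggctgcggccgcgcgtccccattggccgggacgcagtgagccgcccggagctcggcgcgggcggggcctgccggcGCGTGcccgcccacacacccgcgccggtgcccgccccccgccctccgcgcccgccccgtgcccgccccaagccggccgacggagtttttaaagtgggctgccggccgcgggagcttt
PFKFB4 (chr3:48556804-48557053, minus strand): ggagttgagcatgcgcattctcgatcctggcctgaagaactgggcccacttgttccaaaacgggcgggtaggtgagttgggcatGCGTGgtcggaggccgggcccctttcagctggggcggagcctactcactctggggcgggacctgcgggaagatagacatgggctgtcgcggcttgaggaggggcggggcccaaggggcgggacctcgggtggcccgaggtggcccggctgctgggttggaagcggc
PFKFB3, upstream start (chr10:6144671-6144920, plus strand): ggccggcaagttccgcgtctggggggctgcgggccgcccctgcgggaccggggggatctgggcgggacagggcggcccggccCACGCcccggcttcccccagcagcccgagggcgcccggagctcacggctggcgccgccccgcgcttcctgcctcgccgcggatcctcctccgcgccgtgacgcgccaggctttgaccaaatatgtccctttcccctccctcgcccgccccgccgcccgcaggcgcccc
PFKFB3, downstream start (chr10:6202682-6202931, plus strand): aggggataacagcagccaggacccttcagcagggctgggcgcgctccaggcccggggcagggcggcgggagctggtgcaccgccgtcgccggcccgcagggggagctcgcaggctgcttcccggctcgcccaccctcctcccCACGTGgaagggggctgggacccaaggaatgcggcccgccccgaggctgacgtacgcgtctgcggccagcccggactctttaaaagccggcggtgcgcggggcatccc
SLC2A1 (chr1:42958869-42959118, minus strand): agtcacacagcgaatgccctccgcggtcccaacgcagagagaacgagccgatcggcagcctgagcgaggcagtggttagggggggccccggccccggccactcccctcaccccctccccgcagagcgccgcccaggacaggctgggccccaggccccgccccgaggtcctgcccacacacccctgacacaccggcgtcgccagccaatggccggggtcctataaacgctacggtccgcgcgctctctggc
The downstream PFKFB3 window holds CACGTG, which contains ACGTG on both strands and is also the E-box that MYC and related factors bind. Windows of EPAS1, PFKFB4 and the upstream PFKFB3 start hold 1 GCGTG core each, and that of SLC2A1 holds neither core. Among 35116 RefSeq windows of this length, 18.5% held ACGTG, 32.2% GCGTG and 43.2% at least one of them. The table had 58 start sites for 32 of the 38 genes, and 35 of these windows held at least one core (15 of 26 for genes that rose, 8 of 9 for genes that fell). The start sites of one gene share sequence and are not independent, and a match of these letters is a description and not a binding site.

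The PFKFB enzymes make and break down the sugar phosphate that is the strongest activator of phosphofructokinase. PFKFB3 (chromosome 10, 6144934 to 6254644, GRCh38), whose form favours synthesis of the activator, was at 116, 116 and 112 TPM in the 4-OHT libraries and at 32.0, 31.7 and 33.1 in the DMSO libraries. The libraries of each group lie close together and far from the other group (log2 fold change 1.80, SE 0.0466, limma adjusted p = 3.53e-07). PFKFB4 (chromosome 3, 48517684 to 48562015) was at 50.7, 54.9 and 55.2 in 4-OHT against 14.5, 10.2 and 13.6 in DMSO (2.0, SE 0.124, adjusted p = 1.62e-05). PFKFB2, the isoform best known from heart, was low in both groups (4.09 ± 0.188 against 3.76 ± 0.0872, adjusted p = 0.497) and shares its locus with YOD1 on the other strand, at 6.62 against 4.88 TPM. It passed the test under quantile normalization (0.35, adjusted p = 0.0292; 0.0292 to 0.708 over the alternatives). The summed TPM of the 3 isoforms was 170, 175 and 172 in 4-OHT against 50.2, 45.6 and 50.5 in DMSO, and PFKFB3 held 66.5% ± 1.28 and 66.2% ± 2.87 of it. PFKFB3 thus remained the most abundant isoform in both groups.

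**Figure D1:**
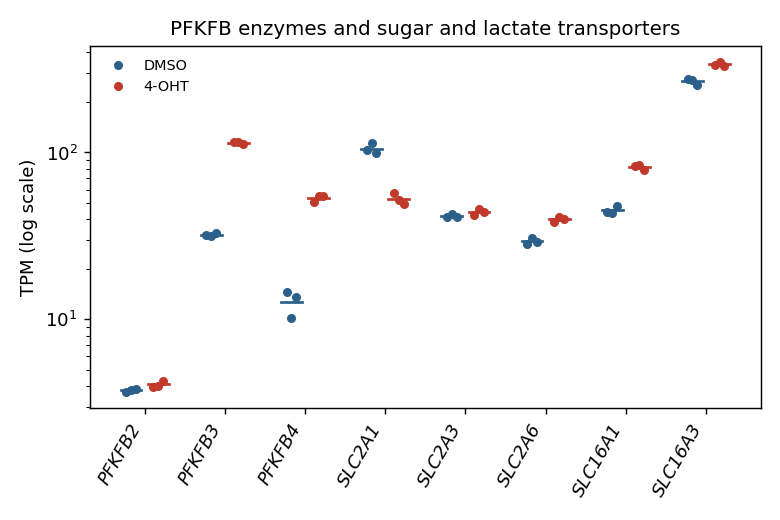
TPM of the PFKFB enzymes and of the transporters of glucose (SLC2A) and lactate (SLC16A) in each library on a log axis; points are libraries and bars are group means. PFKFB3, PFKFB4 and SLC16A1 lie higher and SLC2A1 lower in the 4-OHT libraries, and the groups overlap for none of these.

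Among the transporters of glucose, SLC2A1 fell, SLC2A6 rose and SLC2A3 was not called, and both transporters of lactate rose. SLC2A1 (chromosome 1, 42925375 to 42959176), the widespread basal glucose transporter, was at 57.0, 51.7 and 49.3 TPM in 4-OHT, with DMSO libraries at 103, 114 and 98.6. Every 4-OHT library was below every DMSO library (-0.99, SE 0.0768, adjusted p = 5.1e-05). SLC2A3, a transporter of high affinity, was at 43.9 ± 1.75 against 41.7 ± 0.982 (0.07, adjusted p = 0.304). Once libraries were scaled by median of ratios it was called (0.19, adjusted p = 0.019; range over alternatives 0.019 to 0.578). SLC2A6, a carrier of lysosomal membranes, rose to 39.8 ± 1.38 from 29.5 ± 1.29 (0.42, adjusted p = 0.00111). SLC2A1 made up 59.6% ± 1.21 of the summed TPM of the 3 genes in DMSO and 38.6% ± 2.48 in 4-OHT, and the sum itself was 136 ± 2.84 in 4-OHT against 177 ± 9.90. SLC16A1 (chromosome 1, 112911847 to 112957013), which carries lactate and pyruvate in both directions, was at 82.8, 84.1 and 78.7 in 4-OHT against 43.9, 43.6 and 47.5 in DMSO (0.85, SE 0.0561, adjusted p = 2.19e-05). SLC16A3, the exporter of strongly glycolytic cells and itself a HIF target, stood far higher in both groups (338 ± 7.97 against 268 ± 12.1) and rose by less (0.33, adjusted p = 0.000764). The difference between the fold changes of SLC16A1 and SLC16A3 was not tested. SLC16A3 overlaps CSNK1D on the other strand, which stood at 101 against 95.2 TPM (adjusted p = 0.234).

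Along the chain itself, 6 of 17 enzymes rose, 5 fell and 6 did not pass the test, with a median of 0.00. The share called was 64.7%, beside 49.6% of all genes tested. This balance depended on the scaling: under median of ratios HK1, ALDOA and PKM rose as well, and ALDOC was no longer called. Together the 17 enzymes held 14546, 14506 and 14466 TPM in the 4-OHT libraries and 15721, 15843 and 15380 in DMSO. This was 1.45% of all TPM against 1.57%, and every 4-OHT library was below every DMSO library. The difference did not hold under median-of-ratios scaling, where the sums were 14943 ± 157 in 4-OHT and 14825 ± 206 in DMSO, with overlapping groups. Without GAPDH the deposited sums overlapped as well, at 10084 ± 33.3 against 10142 ± 158. Under median-of-ratios scaling the sums without GAPDH were 10388 ± 119 in 4-OHT and 9608 ± 118 in DMSO, with every 4-OHT library above. The direction of the difference in the enzyme total thus turned with the scaling. Leaving out GAPDH did not turn it, but changed its size and whether the groups overlapped.

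At the first step HK1, the general hexokinase, held most of the TPM and stood at 120 ± 2.96 against 116 ± 3.04 (0.04, adjusted p = 0.447, or 0.16 with adjusted p = 0.0177 after median-of-ratios scaling; range over alternatives 0.0177 to 0.946). HK2, the inducible hexokinase and a HIF target, was at 23.2, 27.2 and 26.0 in 4-OHT, with DMSO libraries at 17.4, 18.2 and 17.1. It rose by 0.51 (SE 0.0787, adjusted p = 0.00156), and its share of hexokinase TPM went from 13.1% ± 0.581 to 17.5% ± 1.05. GPI, which turns glucose phosphate into fructose phosphate, rose slightly (132 ± 2.51 against 112 ± 1.57, log2 fold change 0.24, adjusted p = 0.00222).

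Phosphofructokinase, the step that the PFKFB product activates, has 3 isoforms that form mixed tetramers. PFKM, the muscle isoform, was at 112, 103 and 107 TPM in 4-OHT against 77.3, 75.8 and 72.9 in DMSO and rose (0.50, SE 0.0513, adjusted p = 0.000197). PFKL, the liver isoform (84.0 ± 6.47 against 95.1 ± 10.6, adjusted p = 0.169), and PFKP, the platelet isoform (75.8 ± 2.82 against 86.5 ± 8.17, adjusted p = 0.0812), did not pass the test. Without DMSO replicate 3, whose values were the lowest of that group for both, they did (PFKL -0.27, adjusted p = 0.0305; PFKP -0.26, adjusted p = 0.0143; 0.0305 to 0.661 and 0.0143 to 0.515 over the alternatives). The summed TPM overlapped between groups, 267 ± 5.69 against 257 ± 21.0 (275 ± 7.94 against 243 ± 19.9, with no overlap, under median-of-ratios scaling), while PFKM made up 40.2% ± 1.32 of it in 4-OHT and 29.4% ± 1.60 in DMSO. The PFKM shares of the groups did not overlap.

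Downstream, the aldolase ALDOA was at 1305, 1088 and 1134 TPM in 4-OHT against 1052, 1111 and 1014 in DMSO, with overlapping groups (0.15, adjusted p = 0.129, or 0.27 with adjusted p = 0.022 after median-of-ratios scaling; range over alternatives 0.022 to 0.335). ALDOC, the brain aldolase, held little of the aldolase TPM (1.07% against 1.49%) and its decrease was fragile (12.7 ± 1.02 against 16.0 ± 1.91, log2 fold change -0.31, adjusted p = 0.0484). That call was lost in 10 of 14 alternatives, among them both scalings and the removal of any library but DMSO replicate 3 (range of the adjusted p over alternatives 0.026 to 0.238). TPI1, which interconverts the triose phosphates, stood at 839 ± 15.3 against 886 ± 28.3 (-0.08, adjusted p = 0.109), with a sign that turned under median-of-ratios scaling (0.04). GAPDH (chromosome 12, 6533927 to 6538374), often used as a constant reference gene, was at 4425, 4449 and 4392 in 4-OHT against 5701, 5523 and 5295 in DMSO. It fell by 0.32 log2 units (SE 0.0337, adjusted p = 0.000251) and by 0.19 under median-of-ratios scaling (adjusted p = 0.00326), so that a ratio to GAPDH would carry this difference in these libraries. AC006064.4, an antisense gene that overlaps GAPDH, was lower too (189 against 242 TPM, adjusted p = 0.00122), and the sharing of reads between them was not tested. PGK1 (206 ± 3.97 against 177 ± 6.68, log2 fold change 0.21) and PGAM1 (717 ± 19.8 against 572 ± 12.8, log2 fold change 0.33), which act on the phosphoglycerates, rose.

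ENO1 (chromosome 1, 8861000 to 8879250), the main enolase, was at 1386, 1390 and 1366 TPM in 4-OHT against 1806, 1802 and 1779 in DMSO (-0.38, SE 0.0269, adjusted p = 3.21e-05). ENO2, the neuronal enolase, also fell, to 19.8 ± 3.43 from 30.6 ± 2.30 (-0.61, adjusted p = 0.00532). ENO3, the muscle enolase and not one of the 38 genes, was at 8.19 ± 0.510 against 9.61 ± 1.63 (adjusted p = 0.238), with overlapping groups. ENO2 overlaps LRRC23, which stood at 5.46 against 8.28 TPM and was lower too (adjusted p = 0.0139), and how far reads are shared was not tested. PKM, which makes pyruvate, was level at 2944 ± 50.0 against 2939 ± 20.6 (0.00, adjusted p = 0.956), but median-of-ratios scaling made it a call (0.12, adjusted p = 0.00856; range over alternatives 0.00856 to 0.997). Its row does not part the transcripts of the M1 and M2 forms.

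**Figure D2:**
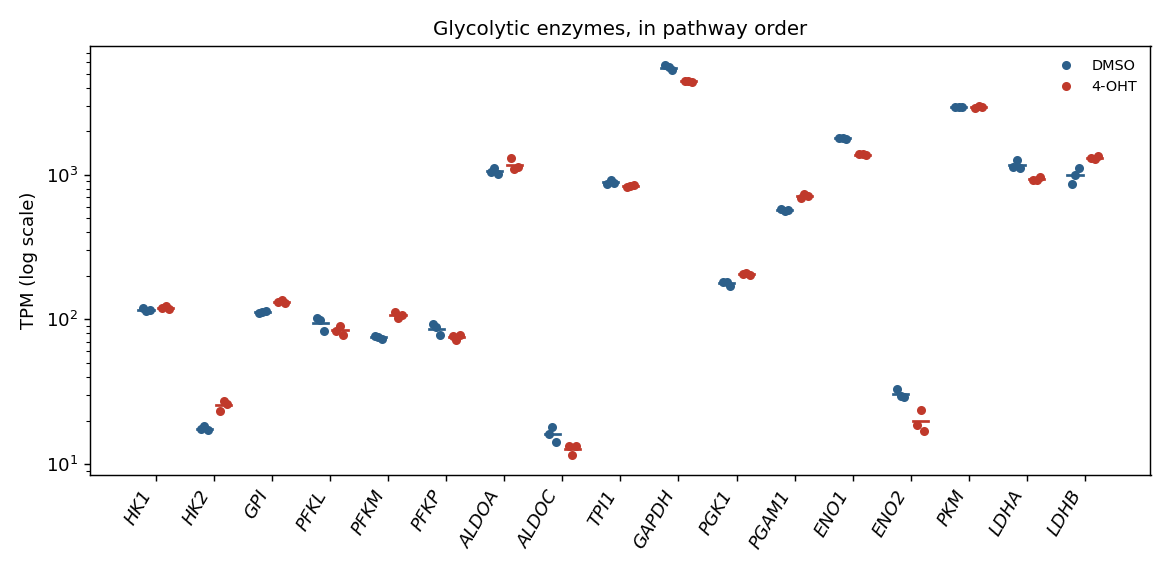
TPM of the 17 glycolytic enzymes in each library, in the order of the pathway, on a log axis; points are libraries and bars are group means. GAPDH, ENO1 and LDHA lie lower and PGAM1, PFKM and LDHB higher in 4-OHT, with no enzyme moved by as much as 1 log2 unit.

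Lactate dehydrogenase changed its isoform balance. LDHA, a HIF target that favours the making of lactate, was at 922, 925 and 970 TPM in 4-OHT, with DMSO libraries at 1135, 1264 and 1111 (-0.32, SE 0.0539, adjusted p = 0.00249). LDHB, which favours the use of lactate, was at 1299, 1279 and 1341 against 865, 1004 and 1110 (0.40, SE 0.0841, adjusted p = 0.00625). The groups overlapped for neither. LDHA held 56.7%, 55.7% and 50.0% of the summed TPM in the DMSO libraries and 41.5%, 42.0% and 42.0% in 4-OHT. The sum was 2245 ± 57.1 in 4-OHT against 2163 ± 143 in DMSO, with overlapping groups, and 2313 ± 57.3 against 2049 ± 130, with no overlap, under median-of-ratios scaling. DMSO replicate 3 lay nearest to the 4-OHT libraries in this share, and without it the DMSO mean was 56.2%.

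**Figure D3:**
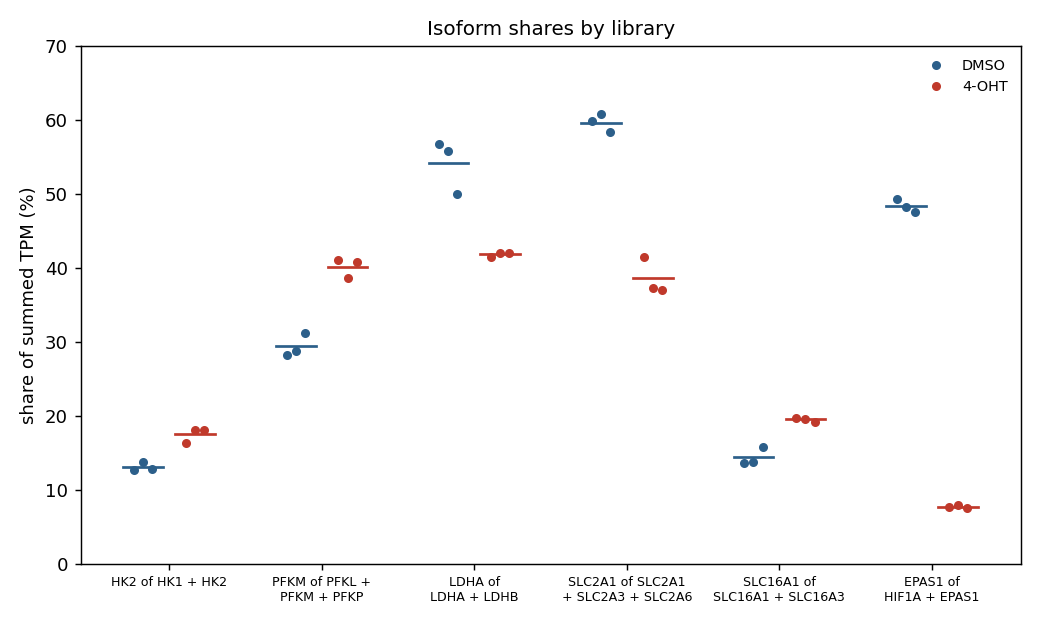
Share of one isoform in the summed TPM of its family, in percent, for each library; points are libraries and bars are group means. The groups do not overlap for any of the 6 shares drawn, and the widest gap among these is that of EPAS1, at 48.4% in DMSO and 7.71% in 4-OHT. Shares of the aldolases, enolases and PFKFB enzymes are not drawn. Among these the groups overlap for ENO2 (1.41% ± 0.231 in 4-OHT, 1.67% ± 0.115 in DMSO) and PFKFB3 (66.5% ± 1.28, 66.2% ± 2.87). They do not overlap for ALDOC, PFKFB2 and PFKFB4.

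The alpha subunits of HIF parted. HIF1A (chromosome 14, 61695513 to 61748259) was at 272, 282 and 285 TPM in 4-OHT, with DMSO libraries at 198, 209 and 204 (0.46, SE 0.0394, adjusted p = 8.48e-05). EPAS1 (chromosome 2, 46293667 to 46386703), which encodes the HIF2 alpha subunit, was at 22.5, 24.4 and 23.2 in 4-OHT, with DMSO libraries at 193, 195 and 184. No other gene of the 38 moved as far (-2.98, SE 0.0522, adjusted p = 8.76e-08), and the change kept between -3.02 and -2.86 over the alternatives. In DMSO the transcripts of the subunits were near parity, with EPAS1 at 48.4% ± 0.909 of their summed TPM, and in 4-OHT EPAS1 held 7.71% ± 0.228. The sum was lower in 4-OHT (303 ± 7.08 against 394 ± 8.75). In a bulk library fewer cells with a transcript and less of it per cell cannot be told apart.

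Among the genes that act on the HIF proteins, VHL was level at 24.4 ± 0.928 against 24.0 ± 1.31 TPM (0.02, adjusted p = 0.797). EGLN1, the main oxygen-sensing hydroxylase, was at 33.1, 32.6 and 32.2 in 4-OHT, with DMSO libraries at 12.6, 27.2 and 13.2. DMSO replicate 2 lay well above the other DMSO libraries, though still below all 4-OHT libraries. Its rise (0.94, SE 0.264, adjusted p = 0.022) was lost without any library other than DMSO replicate 2 (adjusted p = 0.0539 to 0.0724) and with no filter on low values (0.112), and without DMSO replicate 2 it was 1.28 (adjusted p = 5.69e-05). EGLN3, a hydroxylase that HIF itself is known to induce, was listed at 0.568, 0.182 and 0.273 in 4-OHT, with DMSO libraries at 0.238, 0 and 0.0268.

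Of the 8 other HIF targets, 3 rose, 1 fell, 3 did not pass the test and 1 was too low to be tested. The share called was 57.1% of the 7 tested, beside 49.6% of all genes tested. BNIP3L, a receptor for the removal of mitochondria, rose to 113 ± 2.50 from 84.6 ± 3.43 TPM (0.41, adjusted p = 0.000371). NDRG1, a stress-induced protein of the cytosol, rose to 63.3 ± 3.20 from 48.1 ± 1.78 (0.39, adjusted p = 0.00135). Both kept their calls in all 14 alternatives. ADM, a peptide hormone that widens vessels, was at 254, 403 and 394 in 4-OHT, with DMSO libraries at 252, 217 and 244, so that 4-OHT replicate 1 stood just above the highest DMSO library. Its call (0.53, SE 0.173, adjusted p = 0.0387) was lost in 9 of 14 alternatives, among them quantile normalization (0.075) and the removal of any library but 4-OHT replicate 1, and without that library it was 0.75 (adjusted p = 0.000442). CA12, a carbonic anhydrase of the cell surface, fell to 5.03 ± 0.880 from 8.28 ± 0.556 (-0.63, adjusted p = 0.00634, or 0.0518 under quantile normalization).

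The remaining targets were not called as deposited. BNIP3, a relative of BNIP3L with the same kind of role, was at 62.0 ± 4.36 against 56.1 ± 4.18 (0.14, adjusted p = 0.164). It was called after median-of-ratios scaling (0.26, adjusted p = 0.0302; range over alternatives 0.0302 to 0.402). DDIT4, an inhibitor of mTORC1 signalling, was at 36.2 ± 2.95 against 37.8 ± 4.19 (-0.06, adjusted p = 0.644), with a sign that turned under median-of-ratios scaling. ANKRD37 was at 4.79 ± 0.897 against 5.96 ± 1.47 (adjusted p = 0.296) and overlaps UFSP2 on the other strand, which stood at 23.2 against 24.8 TPM. CA9, a carbonic anhydrase that is close to silent in many cells at normal oxygen, was listed at 0.0946, 0.447 and 0.0284 in 4-OHT, with DMSO libraries at 0.10, 0.0770 and 0.

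**Figure D4:**
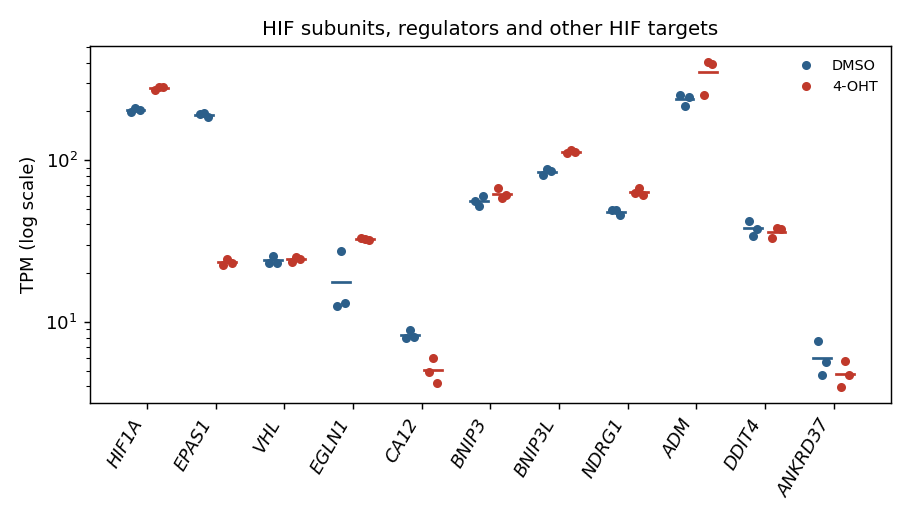
TPM of the HIF subunits, their regulators and other HIF targets in each library on a log axis; points are libraries and bars are group means, and EGLN3 and CA9, below 1 TPM in every library, are not drawn. EPAS1 is the gene with the widest gap, at 23.4 TPM in 4-OHT against 191 in DMSO, and ADM and EGLN1 each have 1 library that stands apart from its group.

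Set side by side, 11 of the 25 glycolytic and transport genes rose and 6 fell (median 0.10), and 5 of the 11 tested HIF regulators and targets rose and 2 fell (median 0.14). The shares called were 68% and 63.6%, beside 49.6% of all genes tested. After quantile normalization the share on the HIF side was 45.5%, below the 47.5% of all genes, and that on the glycolytic side stayed at 68%. After median-of-ratios scaling the glycolytic side had 15 genes that rose and 5 that fell, and the HIF side 6 and 2, and under quantile normalization 12 and 5 against 4 and 1. Both sides hold genes that went either way, and no difference between them was tested. HIF targets are found on both: of the glycolytic genes labelled so above, HK2 and SLC16A3 rose while SLC2A1 and LDHA fell. As HIF is known to raise most glycolytic genes, these are not all such targets, and their balance is not a result.

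**Figure D5:**
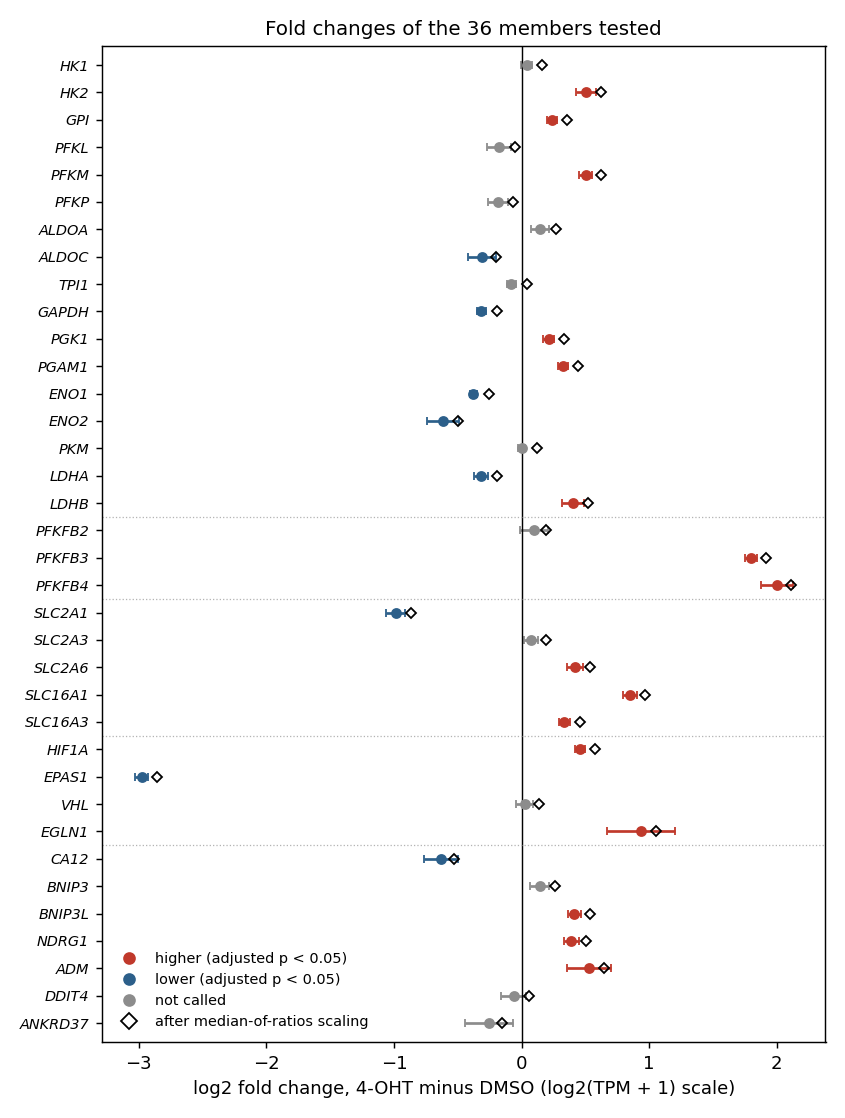
Log2 fold change (4-OHT minus DMSO, log2(TPM + 1) scale) of the 36 genes tested, grouped by role from enzymes at the top to other HIF targets at the bottom; filled points with SE bars are the deposited TPM, coloured by call, and open diamonds are values after median-of-ratios scaling. EPAS1 (-2.98), PFKFB3 (1.80) and PFKFB4 (2.0) stand apart from the other genes, and scaling moves the points by about 0.1 without changing the side on which these 3 lie.

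Other genes of the same pathways were read from 4 lists. Of 27 tested genes of glycolysis and its branches, 6 rose and 10 fell (median -0.14, or 9 and 9 under median-of-ratios scaling). The share called was 59.3% beside 49.6% of all genes tested, or 66.7% beside 50.0% under that scaling. GPD2, which passes electrons from the glycerol phosphate shuttle to the respiratory chain, fell from 22.1 ± 1.55 to 5.12 ± 0.212 TPM (-1.91, adjusted p = 3.99e-06). BPGM, which makes a bypass product of the phosphoglycerates, rose from 41.7 ± 5.06 to 128 ± 5.96 (1.60, adjusted p = 9.35e-06). Of 17 tested genes of sugar and monocarboxylate transport, 6 rose and 9 fell (median -0.36, or 6 and 6 under median-of-ratios scaling). Here 88.2% were called, or 70.6% under that scaling, beside the same shares of all genes. SLC16A6, a relative of the lactate carriers that is known to carry ketone bodies, was at 123, 125 and 133 in 4-OHT against 7.46, 8.15 and 8.20 in DMSO, 16.0-fold higher (3.84, adjusted p = 7.48e-08). SLC5A3, a carrier of myo-inositol, rose from 19.4 ± 1.77 to 158 ± 3.91 (2.97). Both moved further than any of the 5 transporters above.

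Of 18 tested HIF subunits and regulators outside the 38 genes, 6 rose and 3 fell (median -0.04, which turned to 0.08 under median-of-ratios scaling). The share called, 50%, was near the 49.6% of all genes tested. Under that scaling it was 44.4%, below the 50.0% of all genes. ARNT2, a partner of the alpha subunits, fell from 13.9 ± 2.07 to 5.42 ± 0.939 TPM (-1.22, adjusted p = 0.000525). ARNT, another partner and the more abundant one here, was not called, at 21.2 ± 1.83 in 4-OHT against 22.2 ± 2.25 in DMSO (-0.06, adjusted p = 0.627). CITED2, which competes with HIF for its coactivators, fell from 499 ± 15.9 to 255 ± 1.88 (-0.97, adjusted p = 1.73e-06). Of 43 tested further HIF targets, 16 rose and 9 fell (median 0.12, or 20 and 5 under median-of-ratios scaling). Either way 58.1% were called, beside 49.6% of all genes tested as deposited and 50.0% under that scaling. STC1, a secreted glycoprotein, stood at 699 ± 11.7 against 98.4 ± 2.21 (2.82), and ANGPTL4, a secreted inhibitor of lipoprotein lipase, at 13.9, 17.9 and 14.0 against 0.585, 1.15 and 0.450 (3.25). As among the 8 targets above, genes known as HIF targets went both ways, as did all genes tested.

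The series as a whole is described by few values. Library totals were 998367 to 998843 TPM, and no libraries held identical values. HRAS, whose row does not part the introduced transcript from the cells' own, was at 1222 to 1316 TPM in 4-OHT and 908 to 956 in DMSO. ESR1, a gene of the oestrogen receptor, was higher in 4-OHT too, at 70.5 to 73.4 TPM against 46.0 to 49.4 in DMSO. How far either row counts the fusion was not tested. All 10 fibroblast markers reached a mean of 1 TPM, with sums of 19101 to 19509 TPM in 4-OHT and 20227 to 20826 in DMSO. PDGFRB, THY1 and VIM were higher in 4-OHT. COL1A1, COL1A2, COL3A1, PDGFRA, DCN, LUM and FAP were lower. Of the markers of other cells, 2 of 6 of keratinocytes and epithelium (KRT10, EPCAM), 1 of 5 of endothelium (TEK), 2 of 5 of immune cells (CD68, CD14), 2 of 5 of melanocytes (MITF, PMEL) and 2 of 4 of smooth muscle and pericytes (ACTA2, RGS5) did so. KRT5, KRT14, CDH5, CD3E, TYR and DCT were below 1 TPM in every library. Summed levels in 4-OHT and DMSO were 32.8 to 43.2 and 37.5 to 52.5 TPM for the epithelial list, 1.38 to 1.82 and 2.47 to 2.57 for the endothelial and 59.7 to 67.2 and 60.1 to 90.5 for the immune list. They were 6.51 to 6.82 and 8.50 to 9.55 for the melanocyte list and 193 to 194 and 199 to 218 for the smooth muscle list. Markers within a list went either way. TEK was at 0.276 to 0.483 TPM in 4-OHT and 1.83 to 2.12 in DMSO, but PECAM1 at 0.758 to 1.14 and 0.195 to 0.477. CD14 was at 3.59 to 6.98 and 1.31 to 2.95, and CD68 at 54.0 to 62.8 and 57.8 to 87.1. RGS5 was at 20.6 to 28.6 TPM in 4-OHT and 2.92 to 3.89 in DMSO, but ACTA2 at 165 to 173 and 195 to 214. The part of such markers' cells in the results was not tested. Rows named as pseudogenes of these genes were few in TPM: the 62 GAPDH pseudogene rows held 0.580% of the TPM of GAPDH and its copies together, and the share was largest for BNIP3 (6.55%, 39 rows).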

How the data were processed

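Bulk RNA-seq libraries used 1 µg of RNA each, per the labels' protocols. Values were used as TPM deposited by the authors, with no scaling between libraries recorded. Trim Galore 0.6.6, STAR and StringTie and the build GRCh38 are named in the submitters' processing notes. Gene annotation and strand setting: not given in the sources used here, so reads of overlapping genes cannot be told apart. The column of DMSO replicate 3 is TPM deposited by the authors too, with 1 value below 0 replaced by 0. TPM hold no read depth, and no detection limit was computed.

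The test used log2(TPM + 1) of genes whose mean reached 1 TPM. It was the moderated linear model of limma (version 3.58.1, R 4.3.3), 2-sided, with no covariate, a prior variance that follows the mean level, Benjamini-Hochberg adjustment over all genes tested and a threshold of 0.05. The script was tested on simulated data. Groups come from the sample titles. The 38 genes and the lists were chosen with earlier results of these data known. Of genes outside the 38, the 2 of each list with the largest change past the threshold, a mean of at least 5 TPM and groups that do not overlap are named. Genes named only as overlapping neighbours, as markers or as HRAS and ESR1 fall outside this rule. So do ENO3, given as another enolase, and ARNT, given as another partner of the HIF alpha subunits. Positions come from GENCODE 29 (all 38 matched) and promoters from RefSeq. PGLS is not analysed here. Alternatives changed scaling, filter, pseudocount, variance trend, replicate block and libraries in turn. Adding pseudogene rows to their parent gene and scaling the sums of TPM were chosen after seeing the data. Python 3.11.15, pandas 2.3.3 and matplotlib 3.10.9 made tables and plots.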

Additional observations from a re-analysis of the deposited data

How the results depend on the processing

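Of the 24 genes called, 20 kept direction and call in all 14 alternatives, and the exceptions were ALDOC, EGLN1, ADM and CA12. Median-of-ratios scaling moved the median log2 fold change to 0.013 over all genes, 0.23 over the 38, 0.19 on the glycolytic side and 0.26 on the HIF side, and quantile normalization to 0.014, 0.14, 0.17 and 0.12, the cause not being tested. Quantile normalization left 1 HIF-side gene lower. A pseudocount of 0.1 gave medians of -0.11 over all genes and 0.12 on the glycolytic side. With no filter the median of all genes was -0.019, that of the 38 was 0.14, and 3 HIF-side genes rose. With a mean of at least 5 TPM the medians were -0.049 and 0.14. Adding pseudogene rows gave medians of 0.090 for the 38 and 0.084 for the HIF side. On leaving out each library in turn the median ranged from 0.094 to 0.14 for the 38, from 0.071 to 0.11 on the glycolytic side and from 0.087 to 0.19 on the HIF side, where 3 to 4 genes rose.

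The difference in the summed TPM of the 17 enzymes (4-OHT minus DMSO) turned from -1142 to 118 under median-of-ratios scaling and ranged from -1276 to -1045 on leaving out libraries. Among the 36 genes, signs turned only for genes not called. TPI1 (0.042) and DDIT4 (0.058) did so under median-of-ratios scaling, and PKM (-0.0083) and ANKRD37 (0.0072) under quantile normalization. On leaving out libraries, PKM ranged from -0.012 to 0.011, VHL from -0.00030 to 0.067 and DDIT4 from -0.14 to 0.019. Same-numbered replicates did not deviate together (r = 0.0475, 0.00549 and 0.00664 over genes), and 2 of 6 libraries correlated best with their own number. With the replicate number as a block, 2819 genes rose and 4246 fell, and 15 of the 38 rose and 7 fell. The adjusted p was then 0.098 for ALDOC and 0.0554 for ADM, and no other call among the 36 changed. Depth is unknown, so the levels of EGLN3 and CA9 have no limit.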
